A study of Rattus norvegicus with 6 samples.

Results

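The genes described here are the 10 that encode the core subunits of the pyruvate dehydrogenase complex measured here, the kinases that switch it off and the phosphatases that switch it on. They are Pdk1, Pdk2, Pdk3, Pdk4, Pdp1, Pdp2, Pdha1, Pdhb, Dlat and Pdhx. Members were taken from probe sets that the platform annotation pairs with exactly 1 gene symbol, and all 10 were found, among 14506 named genes on the array. They have 12 probe sets, because Pdha1 and Dlat have more than 1, and the probe set with the highest mean over the 6 arrays stood for each gene.

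The complex sits in the mitochondrial matrix and turns pyruvate into acetyl-CoA, which commits carbon from sugar and from many amino acids to oxidation or fat synthesis. Kinases of the Pdk family phosphorylate its pyruvate dehydrogenase component and stop it, and the Pdp phosphatases remove the phosphate and restore activity. In liver, fasting and fatty acids are known to raise Pdk4, which spares pyruvate for glucose synthesis, whereas Pdk2 is the kinase found most widely across tissues. Transcript levels on an array give neither the phosphorylation nor the activity of the enzyme.

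Livers came from 30 adult male Wistar rats of 300 to 350 g at the start, with 5 rats on each of 6 diets. The diets were a normal protein diet low in fat (NP), the same protein level with high sucrose and low fat (NP-HS) or with high sucrose and high fat (NP-HS-HF), and the 3 matching high protein diets (HP, HP-HS and HP-HS-HF). All rats had 10 days on the NP diet beforehand, then 33 to 37 days on their own diet, and were killed in the fed state, 2 h after being given a measured meal (87.6 kJ). Equal amounts of RNA from the 5 rats on each diet were combined and hybridised to 1 array, so no diet has a replicate and the spread between rats was not measured. The title and design text place the question in how dietary protein bears on the response to fat and sucrose. The diets' composition is not used here.

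The values are log2 expression after RMA, a method that corrects background, normalizes between arrays and summarises probes into probe sets. Array medians lay within 0.033 of each other. Hepatocyte markers such as albumin were high on every array, and their summed linear level varied 1.02-fold. The HP-HS-HF array stood farthest from the others, with 108 probe sets at least 1.5-fold from their mean over the arrays, against 51 to 69 on the other 5. The label's tissue is whole liver, in which fewer cells of a type and less RNA per cell cannot be told apart. Probe sets with a mean above log2 5.14, the 30th percentile, were tested. That left 20450 probe sets and 9 of the 10 members. Pdk3, at a mean of 5.03, lay below and has values only.

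Pdk4 is the member whose level differed most between diets, and its upstream sequence is shown so that the gene can be placed. These are the 250 bases before its annotated start in RefSeq, build GRCr8, minus strand, chr4:34568330-34568579, written 5′ to 3′ on the strand of the gene.

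Pdk4: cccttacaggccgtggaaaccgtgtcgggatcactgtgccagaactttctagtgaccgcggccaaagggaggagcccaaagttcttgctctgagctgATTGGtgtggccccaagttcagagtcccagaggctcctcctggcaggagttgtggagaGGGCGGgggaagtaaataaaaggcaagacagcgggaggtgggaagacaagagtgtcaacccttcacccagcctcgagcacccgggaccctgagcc

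Capitals mark the matches to the 7 motifs searched on both strands, which were CCAAT (the CCAAT box), GGGCGG (the GC box), TATAAA (the TATA box), AGGTCA (the hexamer of many nuclear receptor sites), GTAAACA (a forkhead core), AGAACA (a hexamer of glucocorticoid receptor sites) and CACGTG (an E-box). The stretch holds CCAAT on the opposite strand, written ATTGG, and GGGCGG, and the matches do not overlap. CCAAT was present in 34.0% and GGGCGG in 30.5% of 33469 rat stretches of this length. The other 5 motifs were not in this window. Of the 10 members, 8 had an upstream sequence in the table used. CCAAT was in 4 of them (Pdk4, Pdk2, Pdk3 and Pdhx) and GGGCGG in 6 (Pdk4, Pdk1, Pdk3, Pdha1, Dlat and Pdhx).

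Among the 4 kinases, Pdk4 was highest on the diet high in protein, sucrose and fat. Its level was 10.00 on NP, 9.68 on NP-HS, 10.27 on NP-HS-HF, 9.69 on HP, 9.54 on HP-HS and 11.29 on HP-HS-HF. The HP-HS-HF pool stood 1.02 above the next pool, NP-HS-HF, and the pools of the other 4 diets lay between 9.54 and 10.00. Both arrays with fat thus lay above the other 4, as they did for 6.71% of tested probe sets. From the lowest, the order was HP-HS, NP-HS, HP, NP, NP-HS-HF and HP-HS-HF. Only 2 of the 5 steps in this order were larger than the gene's residual SD of 0.30, those from HP to NP and from NP-HS-HF to HP-HS-HF.

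**Figure D1:**
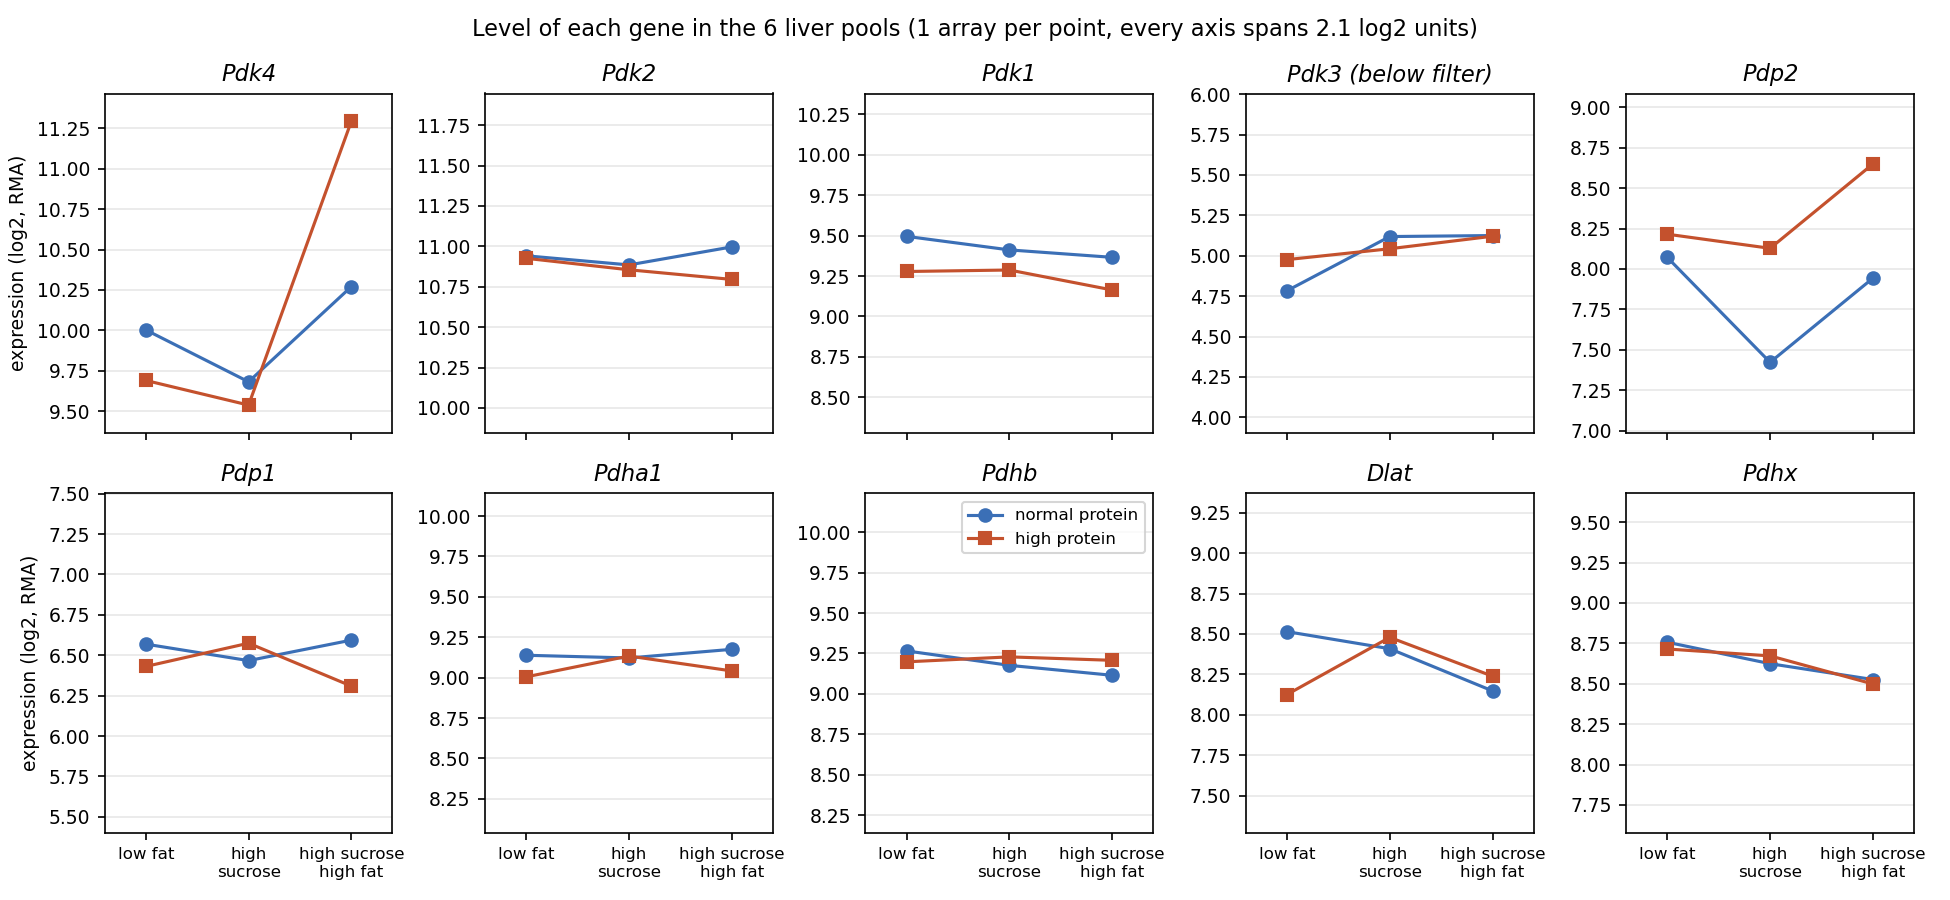
Expression level of each of the 10 genes (log2, y axis, with the same span in every panel) on the low fat, high sucrose, and high sucrose high fat backgrounds (x axis), for the normal protein (circles) and high protein (squares) pools, 1 array per point and no error bar. Pdk4 reaches 11.29 and Pdp2 8.65 on HP-HS-HF, while the other 8 genes span at most 0.39 over the 6 arrays.

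Set against high sucrose alone, the diet with added fat had 1.5-fold more Pdk4 at normal protein (log2 0.59) and 3.38-fold more at high protein (log2 1.76). Each value is a difference of 2 arrays. At least 1.5-fold higher were 0.445% of tested probe sets in the normal protein pair and 0.680% in the high protein pair, and Pdk4 was the only one of the 9 tested members past it in each pair. In the high protein pair its difference was the 4th largest upward among 20450 probe sets, and in the normal protein pair the 86th largest. The fat difference at high protein exceeded that at normal protein by 1.17. By absolute size this is the 59th largest such gap, and it has no test, because an interaction would use up all residual degrees of freedom.

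The 4 fitted differences come from 1 additive model in limma with terms for protein level and background, over all 6 arrays. They are high against normal protein, high sucrose against low fat (sucrose), high sucrose high fat against high sucrose (fat), and high sucrose high fat against low fat (sucrose and fat). For fat, Pdk4 was at log2 1.17 ± 0.30 SE (2.25-fold, higher in 2 of 2 pairs, unadjusted p = 0.00687, adjusted p = 0.813). For sucrose and fat it was at 0.94 ± 0.30 SE (higher in 2 of 2 pairs, adjusted p = 0.877), with values from 0.31 without HP-HS-HF to 1.56 without NP-HS-HF. Neither passed the Benjamini-Hochberg threshold of 0.05 over all probe sets. For these effects 0% of probe sets passed, and 4.95% and 5.18% had an unadjusted p under 0.05. Without the NP-HS-HF array the fat difference of Pdk4, with HP-HS-HF then the 1 array with fat, was 1.80 with an adjusted p of 0.0118, and without the HP-HS-HF array it was 0.55.

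High protein went with less Pdk4 on 2 backgrounds and more on the third. The HP pool was below the NP pool by 0.31, the HP-HS pool below the NP-HS pool by 0.14, and the HP-HS-HF pool above the NP-HS-HF pool by 1.02. The last is a 2.03-fold difference, the 30th largest upward, where 0.836% of tested probe sets were 1.5-fold or more higher. The fitted protein effect of 0.19 ± 0.24 SE averages these opposite values (adjusted p = 0.895), and it was -0.23 when NP-HS-HF or HP-HS-HF was left out. High sucrose went with lower values at each protein level, by 0.32 at normal and 0.15 at high protein (fitted -0.24 ± 0.30 SE).

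Pdk4 is also abundant in heart and skeletal muscle, and fat cells make it too. Of 8 named muscle markers 3 lay below the filter, Myh4, Myh1 and Tnnt3. The summed linear level of all 8 was 520 on HP-HS-HF and ran from 497 to 541 over the 6 arrays. The 5 adipocyte markers summed to 1585 on HP-HS-HF against 1295 to 1448 on the other arrays, most of it from Cidec, a lipid droplet protein that fatty liver also makes. Of these 5 genes, Plin1 (5.95), Cidec (10.37) and Lep (5.65) were highest on HP-HS-HF, Cfd (6.77) was second highest there, and Adipoq (5.17) was lowest there. Set against HP-HS, 4 of the 5 were higher on HP-HS-HF and 1 was lower, with a median difference of 0.16. The part of these cells in the Pdk4 values was not tested.

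Pdk2, the widespread kinase, varied little. It read 10.94, 10.89 and 11.00 on NP, NP-HS and NP-HS-HF and 10.93, 10.86 and 10.80 on HP, HP-HS and HP-HS-HF. The groups overlapped, none of the 5 steps in the order of its levels exceeded its residual SD of 0.088, and its fitted differences lay between -0.08 and 0.03.

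Pdk1, a kinase known as a target of the hypoxia-inducible factor, was lower in every high protein pool. Its levels were 9.50, 9.41 and 9.37 on NP, NP-HS and NP-HS-HF, and 9.28, 9.29 and 9.16 on HP, HP-HS and HP-HS-HF. The protein levels did not overlap, as for 7.58% of tested probe sets with high protein below and 7.35% with high protein above. The nearest pools, HP-HS and NP-HS-HF, were 0.078 apart, slightly less than the residual SD of 0.080. The fitted protein difference was -0.18 ± 0.065 SE, a 1.13-fold difference (lower in 3 of 3 pairs, unadjusted p = 0.0304, adjusted p = 0.504). The protein effect had 0.0440% of probe sets past the test and 8.71% at an unadjusted p under 0.05. Leaving out each array in turn gave values between -0.21 and -0.16.

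Pdk3, the kinase least often linked to liver, lay just under the filter, at the 28.2 percentile of all probe sets. It was lowest on NP, at 4.78, and between 4.98 and 5.13 on the other 5 arrays.

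Of the phosphatases, Pdp2, the catalytic subunit found in liver and fat tissue, was higher with high protein on each background. It read 8.07 on NP, 7.42 on NP-HS and 7.94 on NP-HS-HF, and 8.21 on HP, 8.13 on HP-HS and 8.65 on HP-HS-HF. All high protein pools lay above all normal protein pools, as for 7.35% of tested probe sets. The nearest pools, HP-HS and NP, were only 0.06 apart, less than the residual SD of 0.15. The lowest level, on NP-HS, and the highest, on HP-HS-HF, each stood apart from its neighbour by more than that SD.

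The protein difference of Pdp2 was 0.14 between HP and NP, 0.71 between HP-HS and NP-HS and 0.71 between HP-HS-HF and NP-HS-HF. The last 2 are 1.63-fold each, where 0.870% and 0.836% of tested probe sets were 1.5-fold or more higher, and ranked 99th and 97th upward. The fitted protein effect was 0.52 ± 0.12 SE, or 1.43-fold, higher in 3 of 3 pairs. It ranked 336th of 20450 by p and did not pass (unadjusted p = 0.00483, adjusted p = 0.293). Values without 1 array ran from 0.42 to 0.71.

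Pdp2 was lower with sucrose and higher with fat added to it, and neither difference passed the test. On normal protein, high sucrose went with a 1.57-fold lower level (log2 -0.65, 81st largest downward, where 0.499% of tested probe sets were 1.5-fold or more lower). On high protein the difference was -0.09. Adding fat to high sucrose gave 0.52 at normal and 0.52 at high protein, a gap of 0.001 between the protein levels, against 1.17 for Pdk4. The fitted fat effect was 0.52 ± 0.15 SE (higher in 2 of 2 pairs, adjusted p = 0.889). The fitted sucrose effect was -0.37 ± 0.15 SE (lower in 2 of 2 pairs, adjusted p = 1.00), where 0% passed and 3.02% of probe sets had an unadjusted p under 0.05. It was -0.087 without NP and -0.65 without HP. The fitted sucrose and fat effect was 0.15 ± 0.15 SE. NP-HS-HF at 7.94 lay below NP at 8.07, and HP-HS-HF at 8.65 lay above HP at 8.21.

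Markers of macrophages were also higher on the high protein arrays, all 10 of them by fitted difference (0 past the test). Of the 20450 tested probe sets, 10100 had a fitted protein difference above 0. An unadjusted p under 0.05 for protein was reached by 7 of the 10, against 8.71% of tested probe sets. The summed linear level of the 10 markers was 3641 to 3982 on the normal protein arrays and 4075 to 4677 on the high protein arrays. Their part in the protein differences of Pdp2 and Pdk1 was not tested. By diet the macrophage sums were 4437 on HP, 4677 on HP-HS and 4075 on HP-HS-HF, each above 3982, the highest on normal protein. Sums of bile duct markers were also apart, 279 to 303 on normal and 306 to 327 on high protein. Those of lymphocyte and neutrophil markers were 468 to 477 and 479 to 499. Sums of the other lists overlapped. Fitted protein differences were above 0 for 4 of 4 tested bile duct markers, and for 2 of 4 tested lymphocyte and neutrophil markers. The part of these cells was not tested either.

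Pdp1, the other phosphatase catalytic subunit and the one that calcium stimulates, showed no such pattern. Its level was 6.57, 6.47 and 6.59 on NP, NP-HS and NP-HS-HF and 6.43, 6.57 and 6.31 on HP, HP-HS and HP-HS-HF. The protein levels overlapped, and the largest of its 9 differences was -0.28, between HP-HS-HF and NP-HS-HF. Its fitted protein difference was -0.11 ± 0.09 SE (adjusted p = 0.820), on the other side of 0 from that of Pdp2. It was -0.015 without NP-HS-HF or HP-HS-HF and -0.21 without NP-HS or HP-HS. The difference between these phosphatases was not tested.

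**Figure D2:**
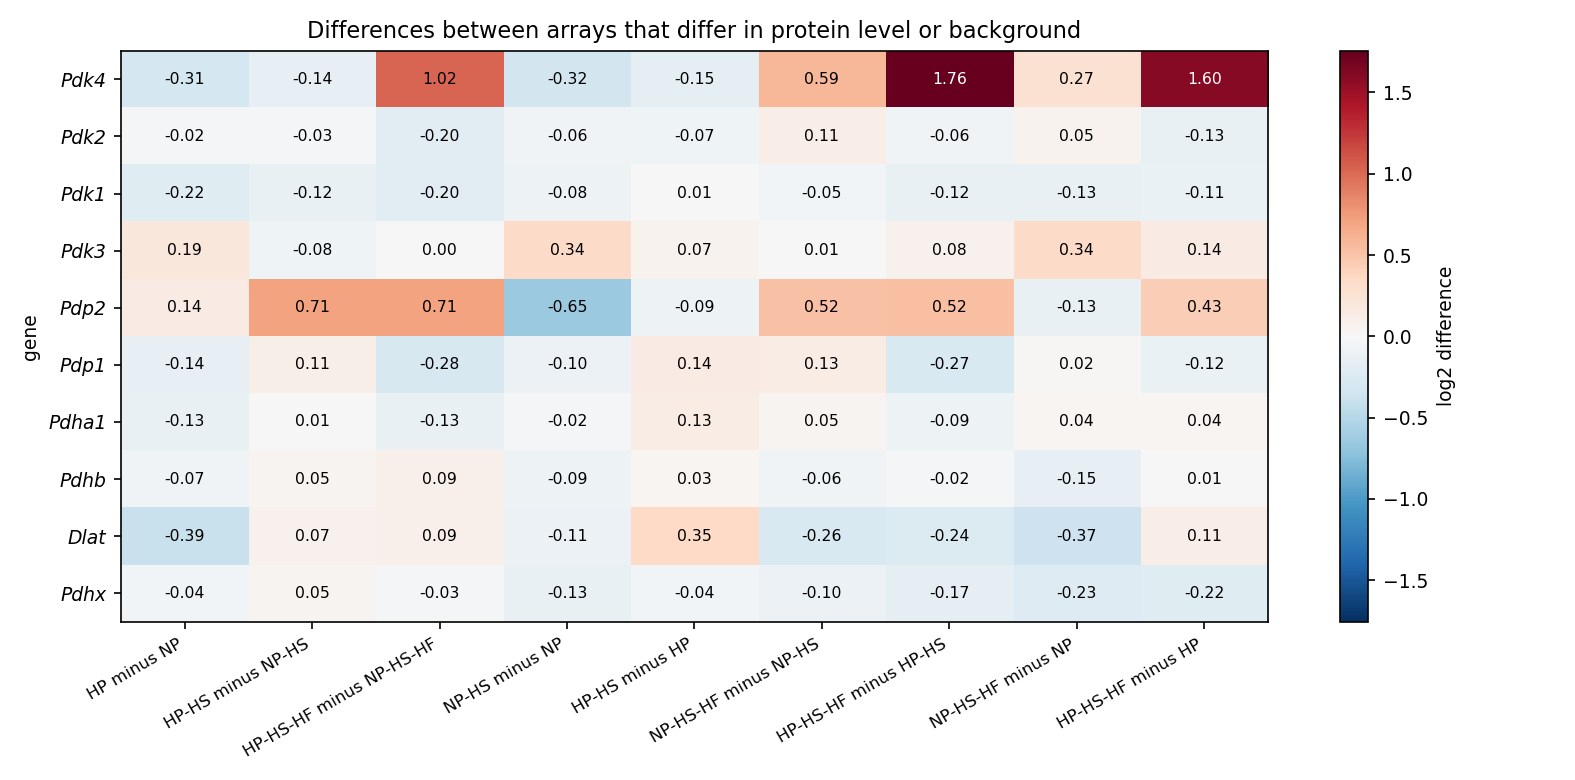
Differences in log2 expression (colour and printed value) for the 10 genes (rows) in the 9 pairs of arrays that differ in protein level or background (columns), 1 array on each side. Pdk4 reaches 1.76 in the high protein fat pair, Pdp2 ranges from -0.65 to 0.71, and no value of the other 8 genes exceeds 0.39 in size.

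The subunits of the enzyme itself differed little between diets. Pdha1 and Pdhb encode the alpha and beta chains of the pyruvate dehydrogenase component, and the alpha chain carries the sites that the kinases phosphorylate. Pdha1 lay between 9.00 and 9.18 and Pdhb between 9.11 and 9.27 over the 6 arrays. For Pdha1 none of the 5 steps in the order of levels exceeded the residual SD of 0.084, and the same held for Pdhb. The fitted differences of this pair of genes lay between -0.09 and 0.06. Another probe set of Pdha1 followed the chosen one within 0.048 after each was centred on its mean, and placed its sucrose and fat difference at -0.010 where the chosen one had 0.04.

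Dlat encodes the dihydrolipoamide acetyltransferase core, onto which the kinases dock. Its level was 8.51 on NP, 8.41 on NP-HS, 8.15 on NP-HS-HF, 8.13 on HP, 8.48 on HP-HS and 8.24 on HP-HS-HF. NP, HP-HS and NP-HS formed the upper 3 and HP-HS-HF, NP-HS-HF and HP the lower 3, with a step of 0.17 between them that exceeded the residual SD of 0.13. HP was thus 1.31-fold below NP (log2 -0.39), with differences of 0.07 and 0.09 on the other backgrounds. The fitted fat difference was -0.25 ± 0.13 SE (lower in 2 of 2 pairs, adjusted p = 0.999), and it ran from -0.38 without HP-HS-HF to -0.13 without NP-HS-HF. The other probe set of Dlat followed within 0.048.

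Pdhx encodes the binding protein that holds dihydrolipoamide dehydrogenase in the complex. It was lowest on the diets with fat, at 8.53 on NP-HS-HF and 8.50 on HP-HS-HF, and read 8.76, 8.62, 8.71 and 8.67 on NP, NP-HS, HP and HP-HS. Both arrays with fat lay above the other 4 for 6.71% of tested probe sets, and the share with both below was not counted. The fitted sucrose and fat difference was -0.22 ± 0.080 SE, or 1.17-fold (lower in 2 of 2 pairs, unadjusted p = 0.0294, adjusted p = 0.900), where 5.18% of probe sets had an unadjusted p under 0.05. It ran from -0.25 to -0.20 as each array was left out. The step from the fat diets to the next pool was 0.10, a little over the residual SD of 0.080.

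**Figure D3:**
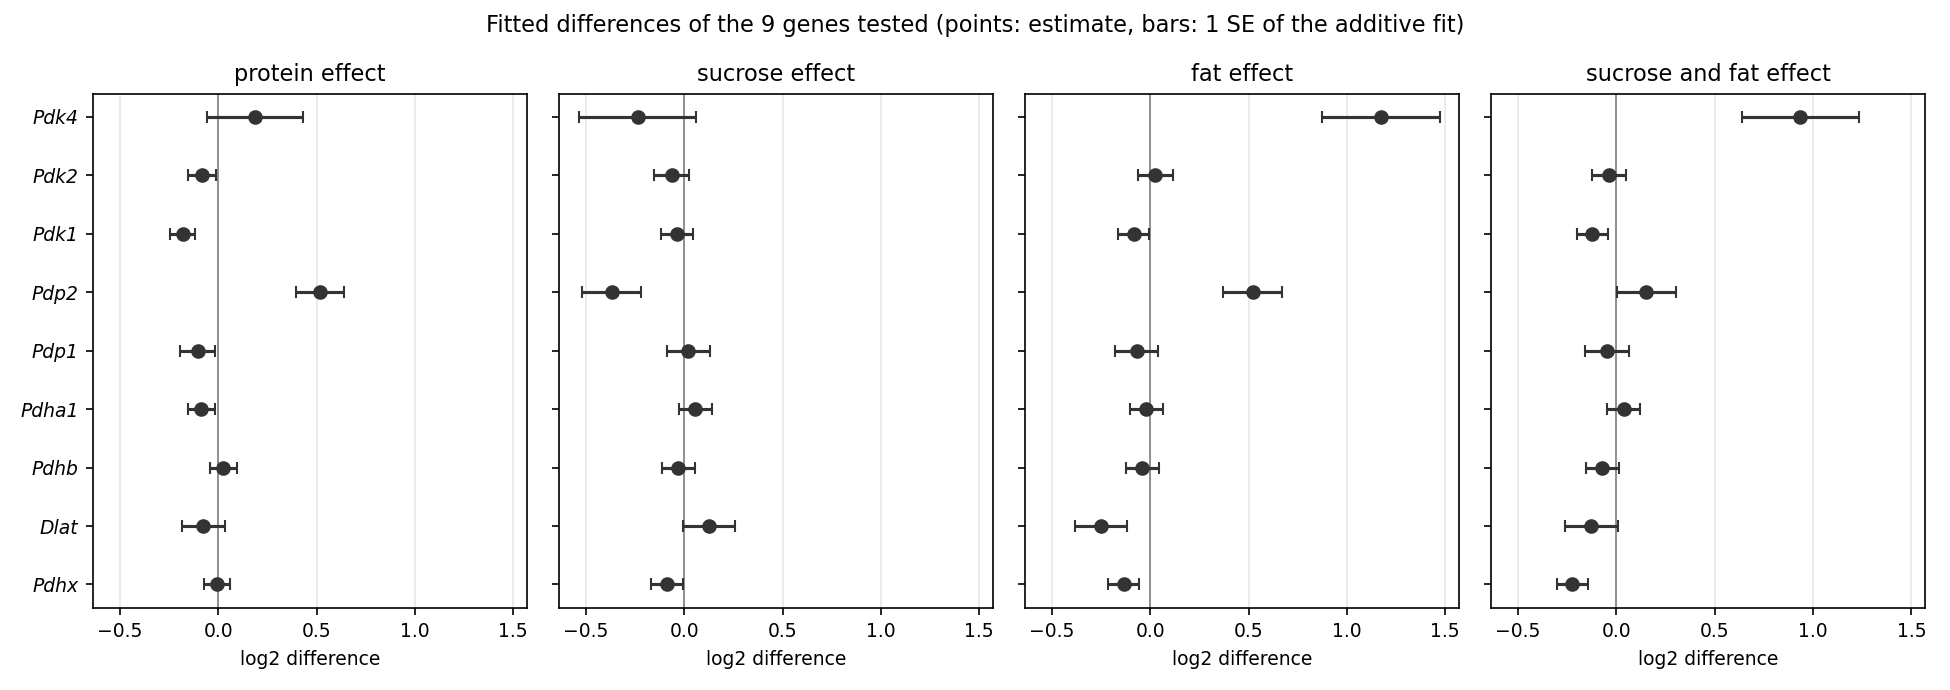
Fitted log2 differences (x axis) of the 9 tested genes (y axis) for protein, sucrose, fat, and sucrose and fat, with bars of 1 SE from the additive limma fit over 6 arrays. Pdk4 stands at 1.17 for fat and 0.94 for sucrose and fat, Pdp2 at 0.52 for protein and 0.52 for fat, and 0 of the 9 genes passed the test for any effect.

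In the 9 pairs of arrays, Pdk4 passed 1.5-fold in 4, Pdp2 in 3 and the other tested members in 0. The fourth pair of Pdk4 was HP-HS-HF against HP, at 3.04-fold, where 0.641% of tested probe sets were 1.5-fold or more higher. No tested member passed in HP against NP, HP-HS against HP or NP-HS-HF against NP, in which 1.38%, 0.890% and 1.16% of tested probe sets did in either direction.

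Directions shared by all pairs of a kind were as follows. With high protein, Pdp2 was higher and Pdk1 and Pdk2 were lower on all 3 backgrounds, as 14.6% and 14.9% of tested probe sets were. With sucrose, 0 of the 9 members were higher and 4 were lower at both protein levels (Pdk4, Pdk2, Pdp2 and Pdhx), against 21.9% and 22.5% of tested probe sets. With fat added to sucrose, Pdk4 and Pdp2 were higher and Pdk1, Pdhb, Dlat and Pdhx lower at both, against 24.9% and 26.2%. With sucrose and fat together, Pdk4 and Pdha1 were higher and Pdk1 and Pdhx lower at both, against 23.4% and 24.2%. Most of these shares are near what all probe sets show. The pairs reuse the same 6 arrays, so they are not independent of each other.

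Over the 9 tested members, 2 spanned 1.5-fold or more over the 6 arrays, Pdk4 and Pdp2, where 6.47% of tested probe sets did. Medians of the fitted differences were -0.08 for protein, -0.04 for sucrose, -0.04 for fat and -0.05 for sucrose and fat, while those over all tested probe sets lay within 0.003 of 0. An unadjusted p under 0.05 was reached for protein by Pdp2 and Pdk1 and for sucrose by Pdp2, against 8.71% and 3.02% of tested probe sets. It was reached for fat by Pdk4 and Pdp2 and for sucrose and fat by Pdk4 and Pdhx, against 4.95% and 5.18%.

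The wider pathway was described with 6 lists of 83 genes, of which 77 had a probe set with 1 symbol and 76 were tested. Of the 83, 6 were not analysed here. Vnn1, a pantetheinase and target of the fatty acid receptor PPAR alpha, was the 1 gene of the 76 past a test (protein, log2 -1.15 ± 0.067 SE, lower in 3 of 3 pairs, adjusted p = 0.0137), where 0.0440% of all tested probe sets passed. Its value without 1 array ran from -1.19 to -1.13, and the call was lost without NP or HP (adjusted p = 0.205 each), without NP-HS or HP-HS (0.117 each) and with an ordinary t statistic (0.583). The others named below had the widest ranges of their lists and passed no test.

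The remaining parts of the complex, its lipoate supply and the pyruvate carrier (8 of 8 tested) had 0 genes past a test, with a median protein difference of -0.04. Mpc2, a subunit of the mitochondrial pyruvate carrier, read 10.00, 10.20 and 9.90 on the normal protein diets in the order above and 9.94, 9.85 and 9.72 on the high protein diets. Its partner Mpc1 was lowest on HP-HS-HF, at 8.85, and highest on NP-HS-HF, at 9.25. Dld, the dihydrolipoamide dehydrogenase shared with related complexes, ranged from 8.85 on NP to 9.16 on NP-HS. Lias, which makes lipoate, ranged from 7.25 on NP to 7.56 on NP-HS-HF.

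Among the related dehydrogenases (8 of 8 named genes tested, 0 past a test), the branched-chain 2-oxoacid dehydrogenase has its own kinase, Bckdk, and phosphatase, Ppm1k. Ppm1k read 10.07, 9.71 and 10.21 on the normal protein diets and 10.28, 10.33 and 10.76 on the high protein diets. Its fitted protein difference was 0.46 ± 0.094 SE and its fat difference 0.46 ± 0.12 SE (adjusted p = 0.236 and 0.813), beside 0.52 and 0.52 for Pdp2. Bckdk read 8.46, 8.58 and 8.34 on normal protein and 8.27, 8.27 and 8.04 on high protein, with a protein difference of -0.27 ± 0.066 SE (lower in 3 of 3 pairs, adjusted p = 0.318). Dbt and Dhtkd1 spanned 0.35 and 0.28.

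In the list of pyruvate and acetyl-CoA making and use (16 of 16 tested, 0 past a test, median protein difference -0.06), the liver pyruvate kinase Pklr, the malic enzyme Me1 and the acetyl-CoA carboxylase Acaca were lower with high protein on each background. Fitted protein differences were -0.49, -0.57 and -0.52. Acaca was lowest on HP-HS-HF, at 9.49. Pdk4 was highest on this array, and a relation between these genes was not tested. The alanine aminotransferase Gpt, which makes pyruvate from alanine, was higher by 0.48.

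Among factors known to act on Pdk genes (16 of 17 named and tested, 0 past a test), the genes of PPAR alpha, the glucocorticoid receptor and Foxo1 spanned 0.11, 0.19 and 0.37. Foxo1 was lowest on HP-HS-HF, at 9.12. Foxo3, a related forkhead factor, read 9.86, 9.77 and 9.45 on normal protein and 9.50, 9.44 and 9.02 on high protein, so it too was lowest on HP-HS-HF. Pdk4 was highest on this array, which stood farthest from the others, and a relation to Pdk4 was not tested. Lpin1, a phosphatidate phosphatase and coactivator of PPAR alpha, was lower on the diets with fat, by 0.70 at normal and 0.86 at high protein (fitted -0.78 ± 0.095 SE, adjusted p = 0.448). Ppargc1a and Pparg spanned 0.44 each.

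Of the fatty acid oxidation and PPAR alpha targets (19 tested of 22), 1 fell with protein, Vnn1, and 0 rose. Median differences were -0.04 for protein and -0.01 for fat. Angptl4, an inhibitor of lipoprotein lipase, was highest on HP-HS-HF and next on NP-HS-HF, as was Pdk4. It read 9.01, 9.17 and 9.48 on normal protein and 8.76, 8.78 and 9.80 on high protein, a fat difference of 0.31 at normal and 1.02 at high protein (fitted 0.66 ± 0.17 SE, adjusted p = 0.813). The lipid droplet protein Plin2 was highest on HP-HS-HF, at 10.49, with fat differences of 0.16 and 0.55. Cpt1a, which admits fatty acids into mitochondria, spanned 0.32. It read 11.62, 11.48 and 11.51 on normal protein and 11.77, 11.69 and 11.80 on high protein. Fgf21 and Decr1 were lower with high protein by 0.50 and 0.43.

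Among insulin, fed and fasted state genes (9 tested of 11, 0 past a test, median fat difference 0.07), Igfbp1, which insulin represses, read 10.11, 10.55 and 10.83 on normal protein and 10.43, 10.62 and 10.91 on high protein. Its fitted sucrose and fat difference was 0.60 ± 0.095 SE (higher in 2 of 2 pairs, adjusted p = 0.760). Pck1, of glucose synthesis, read 12.11, 12.12 and 12.33 on normal protein and 12.45, 12.53 and 12.64 on high protein. Pnpla3 and Trib3 spanned 0.99 and 0.51.

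**Figure D4:**
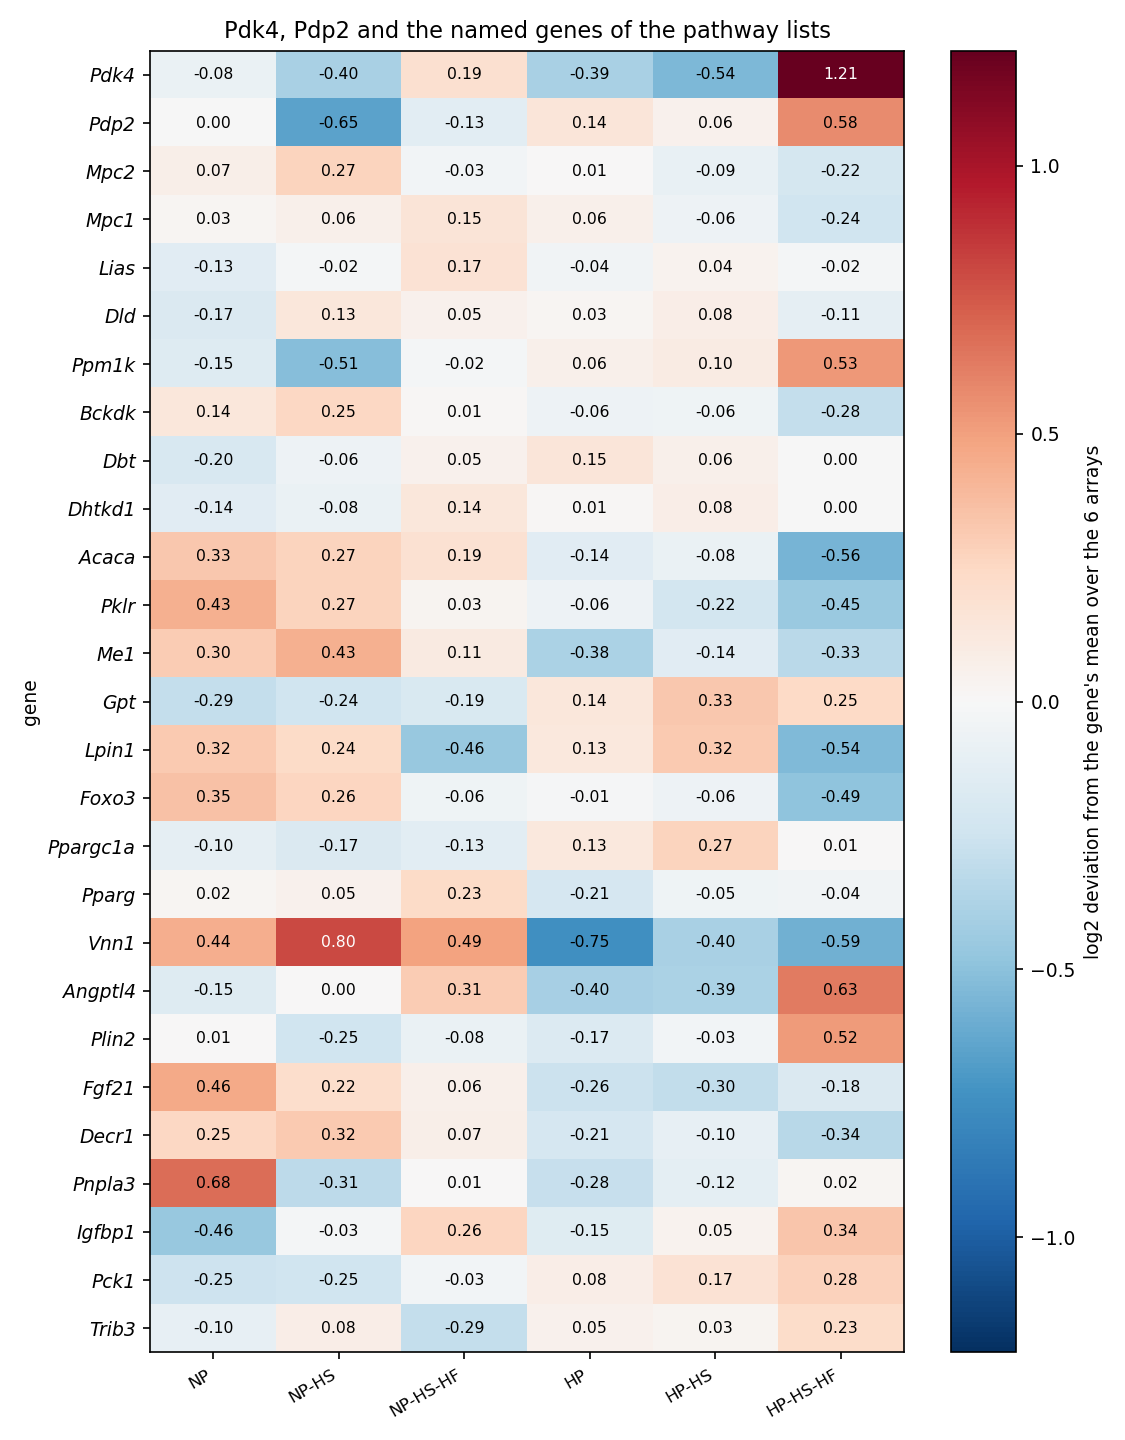
Deviation of each gene from its own mean over the 6 arrays (log2, colour and printed value) for Pdk4, Pdp2 and the 25 named genes of the 6 lists (rows), by diet (columns, 1 array each). On HP-HS-HF, Pdk4 stands at 1.21, Angptl4 at 0.63 and Pdp2 at 0.58, with Vnn1 at -0.59, Acaca at -0.56, Lpin1 at -0.54 and Foxo3 at -0.49.

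The named genes most like Pdk4 over the 6 arrays, among 479 with a range of 1.5-fold or more, were Map1b (Pearson r = 0.975), Tex36 (0.975), Synpo (0.958), Acot5 (0.918), Paqr7 (0.916) and Stc1 (0.916). For Pdp2 they were Med20 (0.997), Snrpd1 (0.991), Tmem208 (0.967), Ppm1k (0.965), Adora2a (0.935) and Nceh1 (0.931). These are descriptions over 6 points from the same arrays. All 6 genes named for Pdk4 were, like it, highest on HP-HS-HF. Choosing them by r to Pdk4, whose level on that array stood far from the rest, favours such genes.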

How the data were processed

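Liver RNA of 5 rats per diet was pooled (1500 ng per rat) and hybridised to 1 Affymetrix whole-transcript array per diet, per the labels' protocols. The deposited values are log2 expression per probe set made by RMA, per the submitters' processing notes, and the sources used here give neither its version nor its settings. The labels' source fields say mice, and the organism field and growth protocol say rat.

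Symbols came from the platform annotation, which paired 15310 of 29214 probe sets with 1 symbol and 323 with several. Limma 3.58.1 in R 4.3.3 fitted protein level and background to all 6 arrays, leaving 2 residual degrees of freedom, with Benjamini-Hochberg adjustment over the 20450 tested probe sets. The residual SD quoted is the moderated one. With 1 array per diet, this residual is the departure of the 6 pooled arrays from the additive model. It is not scatter between pools on the same diet. For Pdk4 it includes the gap of 1.17 between the fat differences at the 2 protein levels. The p-values reflect only this moderated residual, and the number of arrays limits their precision. The fit was tested on simulated data. Alternatives covered the filter, normalization, prior variance, arrays and probe sets. Upstream sequence and gene models are from RefSeq GRCr8, and the files name no build. All members are named. From each list came genes past a test and up to 4 others of widest range, and the like genes are the 6 with the highest r to the widest member and to that with the largest protein effect. The genes Cpt1a, Foxo1, Ppara and Nr3c1 were chosen for the text after their values were seen. Members and lists were chosen with earlier results of these data known.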

Additional observations from a re-analysis of the deposited data

Results flagged for a closer look

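Pdk4 was the 1 member whose protein difference was past 1.2-fold in opposite directions on different backgrounds. High minus normal protein was -0.31 between HP and NP, -0.14 between HP-HS and NP-HS and 1.02 between HP-HS-HF and NP-HS-HF, on the log2 scale. Each value is 1 array against 1 array, and the difference between backgrounds was not tested.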

How the results depend on the processing

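No paired analysis was possible because every diet has 1 pool and the labels give no replicate numbers, although the background term already sets high against normal protein within each background. The count of probe sets past the test for protein, 9 as reported, was 3 with no filter, 59 with named genes only, 16 with array medians centred, 51 with an intensity trend in the prior variance and 0 with an ordinary t statistic, and ran from 0 to 48 as each array was left out. The fit on the arrays of the contrast only was not run for protein, which uses all 6. For sucrose the count was 0, became 3 with the arrays of the contrast only, and ran from 0 to 3 without 1 array. Without 1 array it ran from 0 to 17 for fat and from 0 to 12 for sucrose and fat. Of 507 tested values of the members under the alternatives, 474 kept their direction and their side of the threshold, 31 changed sign and 2 came past the threshold. Alternatives that changed only the filter, the limit to named genes, the prior variance or the t statistic left each fitted value unchanged. Direction could not change under these. No member passed in the reported fit, so keeping its side of the threshold meant not passing. Of 51 untested values, all of Pdk3 below the filter, 48 kept their sign and 3 changed it. Those 2 are Pdk4 for fat and for sucrose and fat (1.56, adjusted p = 0.0166), each without the NP-HS-HF array. Outside the fits without 1 array, 1 value changed sign, Pdha1 for sucrose and fat with its other probe set (-0.010). The others that changed sign did so when 1 array was left out. For protein the ranges were -0.23 to 0.44 for Pdk4, -0.040 to 0.094 for Pdk3, -0.0076 to 0.073 for Pdhb, -0.16 to 0.081 for Dlat and -0.035 to 0.010 for Pdhx. For sucrose they were -0.61 to 0.14 for Pdk4, -0.080 to 0.0054 for Pdk1, -0.14 to 0.18 for Pdp1, -0.017 to 0.13 for Pdha1, -0.10 to 0.041 for Pdhb and -0.11 to 0.36 for Dlat. For fat they were -0.063 to 0.12 for Pdk2, -0.043 to 0.13 for Pdk3, -0.23 to 0.090 for Pdp1, -0.092 to 0.053 for Pdha1 and -0.092 to 0.0088 for Pdhb. For sucrose and fat they were -0.13 to 0.051 for Pdk2, -0.13 to 0.43 for Pdp2, -0.18 to 0.086 for Pdp1 and -0.36 to 0.11 for Dlat. The cause was not tested. The alternatives for Vnn1 were added after seeing the data. Fits without 1 array have 1 residual degree of freedom, and a background left with 1 array is assumed to vary like the others.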
